A study of Homo sapiens with 5 samples.

Results

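The regions described are the NRF2 peaks of SNU638 cells that shared no base with a peak of BRG1, ACTL6A or an IgG control. They were selected on the peak lists themselves, by overlap with the anti-BRG1 list, the anti-ACTL6A list and the list of the second IgG library, here IgG 2. Of the 9045 NRF2 peaks, 2078 (23.0%) met the rule, and that share is the rule's own outcome, not a result. They were split into 217 peaks within 1 kb of the transcription start site (TSS) of a protein-coding transcript and 1861 peaks farther away. For comparison, 5954 NRF2 peaks shared at least 1 base with BRG1 or ACTL6A and none with IgG 2, of which 4510 lay at a TSS and 1444 away from one. The remaining 1013 NRF2 peaks shared a base with IgG 2.

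The data are CUT&Tag peak lists from SNU638, an established human gastric cancer cell line grown in medium with serum and given no treatment. The 5 libraries comprised 1 each with an antibody to NRF2, BRG1 or ACTL6A and 2 with IgG, an antibody with no chromatin target. In CUT&Tag an antibody in permeabilised cells tethers a transposase that cuts and tags the DNA beside it, and places where tagged fragments pile up are called as peaks. The study asked where ACTL6A, NRF2 and BRG1 bind the same sites, and the peaks without that sharing are described here. There was 1 library per antibody, so intervals below cover counting error only, treat peaks as independent, and no difference between libraries could be tested.

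NRF2 (gene NFE2L2) is a transcription factor that pairs with small MAF proteins on the antioxidant response element (ARE). It is held low by KEAP1 and is known for switching on genes of glutathione synthesis, the pentose phosphate pathway and drug detoxification under oxidative stress. BRG1 (SMARCA4) is an ATPase of the SWI/SNF complexes, which move nucleosomes, and ACTL6A is an actin-like subunit of the same complexes.

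The lists held 48793 peaks for BRG1, 23917 for ACTL6A, 1746 for IgG 2 and 11 for IgG 1, and 0 of the NRF2-only peaks overlapped IgG 1. For 99.8% of NRF2 peaks the deposited fold enrichment and p-value gave a whole number of fragments at the summit, the highest point of the peak, and a number expected from the local background. The weakest NRF2 peaks had 8 fragments at the summit, whereas the BRG1 and ACTL6A lists went down to 3. The lowest expected number was 1.48 fragments for NRF2, 0.271 for BRG1 and 0.0993 for ACTL6A.

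For the core of the ARE, matches to TGACNNNGC on either strand were sought in the 200 bp centred on each summit. The strongest NRF2-only peaks that held it are shown because the ARE is the sequence NRF2 is known to bind, 5 at a TSS and 5 away. Each line gives the core in capitals with 10 bases to each side, 5′ to 3′ on the strand of the core (hg38).
YOD1 (chr1:207051286-207051314, plus strand): gattggaatgTGACCTTGCacttagtgag
S100A16 (chr1:153609261-153609289, minus strand): tggtggggccTGACCGAGCagcctttcct
JKAMP and L3HYPDH (chr14:59482948-59482976, minus strand): acaggagggaTGACCTGGCaagctggcat
TNC (chr9:115086463-115086491, plus strand): cactgcccatTGACACAGCggccatggcc
ZNF85 (chr19:20923602-20923630, plus strand): ccctgcgcagTGACTGTGCcctggactgg
intron of a gene, nearest start FKBP15 (chr9:113188162-113188190, plus strand): tttccaaaacTGACAGTGCaacacagcag
nearest start ARHGAP22 (chr10:48606596-48606624, plus strand): tgtgccccagTGACTTTGCacatgccttg
nearest start ILRUN (chr6:34657587-34657615, plus strand): ctggagaggaTGACAAAGCaaattcattt
between genes, nearest start ZNF33B (chr10:40763524-40763552, minus strand): aacgcacagaTGACAAAGCagtttctgag
between genes, nearest start ZNF337 (chr20:27342392-27342420, minus strand): aaaaaagttcTGACATTGCttctatctag

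The cores lay between 1 bp (YOD1) and 96 bp (ILRUN) from the summit. Over all members, 171 matches away from a TSS used 41 different cores, and 16 matches at a TSS used 14. The matches at a TSS held 0 that were also an AP-1 site (TGANTCA), and 11 of those away did. The ZNF33B and ZNF337 peaks lie in sequence that repeats itself every 340 bp and 171 bp, and the 31 bases at their summits occur 978 and 8339 times in the genome.

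The sequence at the summit itself is shown for peaks at a TSS that the results below turn on. It is given as the 60 bases around the summit on the plus strand. Matches to the motifs searched are in capitals, apart from the looser ARE core TGANNNNGC, which is not marked.
ZNF300 (chr5:150905049-150905108): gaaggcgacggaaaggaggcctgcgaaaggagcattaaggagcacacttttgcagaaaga
YOD1 (chr1:207051269-207051328): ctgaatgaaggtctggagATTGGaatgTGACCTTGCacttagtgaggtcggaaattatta
HS3ST3B1 (chr17:14300876-14300935): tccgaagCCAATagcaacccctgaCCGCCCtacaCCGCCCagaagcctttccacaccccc
MGST1 (chr12:16348929-16348988): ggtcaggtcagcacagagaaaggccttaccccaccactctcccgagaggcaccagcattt
TALDO1 (chr11:747972-748031): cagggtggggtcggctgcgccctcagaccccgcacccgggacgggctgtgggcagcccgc
In YOD1 the capitals mark a CCAAT box read on the other strand and the ARE core, and in HS3ST3B1 a CCAAT box and a pair of SP/KLF boxes (GGGCGG read on the other strand). The ZNF300 and MGST1 windows held none of the 18 motif patterns searched. The TALDO1 window held only the looser ARE core TGANNNNGC, read on the other strand.

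NRF2-only peaks were narrower and held fewer fragments than NRF2 peaks shared with BRG1 or ACTL6A. A wide peak shares a base more easily, so width is tied to the rule and is given as a description. The median width was 378 bp at a TSS (95% interval of the median 367 to 407) and 363 bp away (357 to 368), against 566.5 bp (557 to 575) and 453 bp (439 to 466) for the shared peaks. At the summit the median was 14 fragments at a TSS (13 to 14) and 12 away (12 to 12), against 19 (18 to 19) and 17 (17 to 18). At a TSS the expected numbers were close, with medians of 2.80 fragments for NRF2-only peaks (2.59 to 2.97) and 2.98 for shared ones (2.94 to 3.02). Away from a TSS they were apart, at 2.03 (1.96 to 2.07) and 3.15 (3.04 to 3.28), and the median fold enrichments there were 4.03 and 4.21.

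The q-value, the caller's error rate after correction for the many places tested, put most members low in the list. A −log10 q of at least 5 was reached by 31 of 217 NRF2-only peaks at a TSS (14.3%, Wilson 95% interval 10.3% to 19.6%) and by 369 of 1861 away (19.8%, 18.1% to 21.7%). Shared peaks reached it in 60.2% (58.8% to 61.7%) and 45.7% (43.2% to 48.3%). Among the 1000 highest NRF2 peaks were 44 members, 2 of them at a TSS, and among the highest 100 there was 1. The share without a partner was lower among stronger peaks but did not fall steadily. Of the NRF2 peaks outside IgG 2, it was 23.1% of the 7588 with at least 10 fragments, 9.22% of the 2919 with at least 20, and 11.2% of the 455 with at least 40.

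At the rule's limit, the 3 members nearest to another peak lay 0 or 1 bp from it without sharing a base. They ran from 65945436 to 65946048 on chromosome 11 (near TSGA10IP), from 122965619 to 122965991 on chromosome 12 (near ABCB9) and from 48290777 to 48291083 on chromosome 19 (near ZNF114). Just outside it, peaks near IVD, PRDM15 and HIBCH shared 2, 2 and 3 bases and were no members. There were 50 members with another peak within 50 bp, and 105 other NRF2 peaks outside the set shared 50 bases or fewer.

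Close neighbourhood to BRG1 was frequent at a TSS, where BRG1 peaks are common in general. BRG1 had a peak at a TSS of 63.5% of all genes, a share of genes and not of peaks. The nearest BRG1 peak lay a median 653 bp from NRF2-only peaks at a TSS (quartiles 179 and 8331 bp), and 124 of 217 (57.1%, 50.5% to 63.5%) had one within 1 kb. Away from a TSS the median was 36738 bp and 153 of 1861 (8.22%, 7.06% to 9.56%) had one within 1 kb. For ACTL6A the medians were 14897 bp and 39137 bp. Over all members, 13.3% (11.9% to 14.9%) lay within 1 kb of a BRG1 peak.

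The summits at a TSS were spread over the start region and leaned downstream. BRG1 had a peak at a TSS of 63.5% of all genes, and members share no base with BRG1 or ACTL6A. Position is therefore tied to the rule and is given as a description. They lay a median 404 bp from the nearest protein-coding start, against 134 bp for shared peaks at a TSS. Within 250 bp of it were 86 of 217 (39.6%, 33.4% to 46.3%), against 74.1% (72.8% to 75.3%) of shared peaks. Upstream of the start lay 35.0% (29.0% to 41.6%) of NRF2-only summits and 52.7% (51.2% to 54.2%) of shared ones. In the annotation 124 summits (57.1%) were in an intron of a protein-coding gene, 63 (29.0%) in an exon, 8 in a lncRNA gene and 22 between genes.

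Of 19689 genes with a protein-coding start, 239 (1.21%) had an NRF2-only peak within 1 kb of one. A BRG1 peak was also at a TSS of 168 of these genes (70.3%) without sharing a base with that NRF2 peak, and an ACTL6A peak at 76 (31.8%). BRG1 had a peak at a TSS of 63.5% of all genes. Neither BRG1 nor ACTL6A had a peak at any TSS of 65 genes (27.2%), and 41 (17.2%) had another NRF2 peak that was shared. The shares with ACTL6A, with neither and with another NRF2 peak were not set beside all genes. They are given as a description. A TSS of 1 gene was near 193 peaks, and of 2 genes near 23.

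The highest NRF2-only peak at a TSS was at ZNF300, a KRAB zinc finger gene on chromosome 5 (150904554 to 150905288). It held 35 fragments against 2.17 expected, a fold enrichment of 11.4, ranked 473 among all NRF2 peaks, and had its summit 96 bp upstream of the start. The nearest BRG1 peak was 114038 bp away and the nearest ACTL6A peak 83970 bp. The peak at YOD1, a deubiquitinase, came next, with 38 fragments against 4.69 and its ARE core 1 bp from the summit. BRG1 lay 1132 bp from it and ACTL6A 1192 bp.

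Of the 10 highest peaks at a TSS, 5 more had no BRG1 peak within 20 kb. These were HS3ST3B1, a heparan sulfate sulfotransferase, with 28 fragments against 3.53, and CIBAR1, a BAR domain protein of cilia, with 28 against 3.84. PAX9, a paired box transcription factor, had 21 against 2.87 with the summit 2 bp from the start. MGST1, a microsomal glutathione transferase, had 21 against 3.11, and TUBA1A, an alpha tubulin, had 20 against 2.80. BRG1 was 94306, 27805, 341010, 359662 and 23252 bp away from these in turn. The other 3 were nearer to BRG1. S100A16, a calcium-binding protein, had 39 fragments against 8.30 with BRG1 6224 bp away. The peak shared by JKAMP and L3HYPDH had 22 against 3.57 with BRG1 at 270 bp, and TAF12, a TFIID subunit, 21 against 3.53 with BRG1 at 307 bp.

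Genes of NRF2 biology had few NRF2-only peaks at a TSS, in counts near the 1.21% of all genes. An NRF2 peak of any kind was at a TSS of 5541 genes, 28.1% of all. Of 33 NRF2 targets measured, 15 (45.5%) had an NRF2 peak at a TSS and 1 had a member, TALDO1 (3.03%). TALDO1 codes for transaldolase of the pentose phosphate pathway. Its peak (chromosome 11, 747888 to 748646) held 19 fragments against 4.94, a −log10 q of 3.35, and its summit lay 538 bp inside the gene, with BRG1 262 bp and ACTL6A 988 bp away. Of 37 glutathione enzymes, 16 had an NRF2 peak at a TSS and 1 had a member, MGST1. The MGST1 peak (chromosome 12, 16348613 to 16349206) lay 1162 bp downstream of the nearest start, in an exon, with a −log10 q of 7.84 and no BRG1 or ACTL6A peak at any TSS of the gene.

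Counts were 0 members for the 19 genes of NRF2 and its regulators, the 14 AP-1 genes, the 33 proteasome genes, the 31 SWI/SNF subunits and the 27 gastric and gut transcription factors. With 1.21% of all genes in the set, lists of this size can be at 0 without differing from it. An NRF2 peak of any kind was at a TSS of 11 (57.9%), 7 (50.0%), 20 (60.6%), 14 (45.2%) and 4 (14.8%) of them, beside 28.1% of all genes. Among 95 respiratory chain genes, 45 (47.4%) had an NRF2 peak at a TSS and 3 had a member. The 3 were COX6C and CYC1 (subunits of complexes IV and III) and NDUFA10 (complex I). COX6C had 20 fragments against 3.68 with BRG1 53 bp away, NDUFA10 10 against 1.51 with BRG1 at 84 bp, and CYC1 29 against 10.6 with BRG1 at 236 bp. Of 86 ribosomal protein genes, 41 (47.7%) had an NRF2 peak at a TSS and 1 had a member, RPL17. The RPL17 peak had 15 fragments against 3.09 and BRG1 4705 bp away. These genes, and those named in the next lines, were picked after their values were seen.

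Zinc finger genes were the largest list, and 12 of 509 (2.36%, beside 1.21% of all genes) had a member at a TSS. An NRF2 peak of any kind was at a TSS of 204 of them (40.1%), beside 28.1% of all genes. Besides ZNF300, the peaks at ZNF615 (14 fragments against 1.51), ZNF808 (15 against 2.11), ZNF85 (13 against 1.72) and ZNF114 (13 against 2.10) each lay within 201 bp of the start and over 8 kb from a BRG1 peak. The other 7 were ZNF7, ZNF438, ZNF592, ZNF213, ZNF875, ZNF800 and ZNF28, with 9 to 31 fragments and −log10 q from 1.88 to 4.17. Of the 12 genes, 6 had a further NRF2 peak at a TSS that was shared. Of 69 replication-dependent histone genes, 5 (7.25%) had a member and 49 an NRF2 peak of any kind. They came from 3 peaks, at H2AC20 and H2BC21 (26 fragments against 5.67), at H2AC15 (22 against 5.06) and at H2BC10 and H3C8 (13 against 3.14, 4 bp from BRG1). The 31 bases at the H2AC20 and H2BC21 summit occur 5 times in the genome. Of 390 olfactory receptor genes, 1 (OR3A3, 10 fragments against 1.48) had one.

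For the ARE core, the intervals at NRF2-only summits and 1 kb away overlapped, and those of shared peaks did not. At a TSS there were 217 members against 4510 shared peaks, so intervals of members were wider, and the overlap depended on the rule, as given below. At a TSS it was in 16 of 217 summit windows (7.37%, 4.59% to 11.6%) and in 5.53% (3.74% to 8.10%) of 200 bp windows centred 1 kb to each side. Away from a TSS it was in 8.54% (7.36% to 9.90%) of summit windows and 8.03% (7.20% to 8.95%) of flanks. In shared peaks at a TSS it was in 10.4% (9.50% to 11.3%) of summits against 5.98% (5.50% to 6.48%) of flanks, and away in 12.5% (10.9% to 14.3%) against 7.58% (6.67% to 8.61%). It was in 9.97% of windows of the same length at 19688 protein-coding starts, 1 per gene.

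Several motifs of promoter factors were less frequent in members than in shared peaks, but the CCAAT box was not. The SP/KLF box (GGGCGG) was in 26.7% (21.3% to 33.0%) of NRF2-only summits at a TSS, 55.8% (54.3% to 57.2%) of shared ones and 53.9% of all starts. The ETS site (CCGGAAG) was in 3.69% (1.88% to 7.10%) against 10.4% (9.56% to 11.3%), and the NRF1 site (GCGCANGCG) in 2.30% (0.988% to 5.28%) against 8.12% (7.35% to 8.95%). The CCAAT box was in 24.4% and 24.5%. Away from a TSS, SP/KLF was in 6.34% (5.32% to 7.54%) of members and 27.6% (25.4% to 30.0%) of shared peaks. The AP-1 site was in 4.30% (3.47% to 5.32%) and 10.6% (9.11% to 12.3%), against 4.54% and 4.43% in their flanks. At a TSS it was not lower in members, with 5.53% (3.19% to 9.42%) against 2.99% (2.53% to 3.53%) of shared peaks, which overlap.

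Base composition moved with these shares. The median GC content of the summit window was 58.0% for NRF2-only peaks at a TSS and 50.5% away, against 65.5% and 60.0% for shared peaks. A median of 7 CpG dinucleotides lay in the window at a TSS and 3 away, against 16 and 6. Windows rich in CpG (GC of at least 50% and at least 0.6 of the CpG expected) were 36.9% (30.7% to 43.5%) of members at a TSS and 78.8% (77.6% to 80.0%) of shared peaks there. The part of base composition in the motif shares was not tested.

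The shares were also compared among peaks of like strength, a comparison added after the data had been seen. Among peaks at a TSS with 11 to 17 fragments, the middle range of the members, SP/KLF was in 27.0% (20.0% to 35.5%) of 122 members and 53.8% (51.5% to 56.1%) of 1825 shared peaks. The ARE core was in 5.74% (2.81% to 11.4%) and 9.59% (8.32% to 11.0%), which overlap. AP-1 was in 4.92% (2.27% to 10.3%) and 2.58% (1.94% to 3.41%), which overlap too. Away from a TSS and outside tandem repeats, among peaks with 10 to 14 fragments, AP-1 was in 4.70% (3.40% to 6.46%) of 745 members and 9.60% (7.07% to 12.9%) of 396 shared peaks. The ARE core was in 8.05% (6.31% to 10.2%) and 10.4% (7.72% to 13.7%), again overlapping.

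Many of the 1861 NRF2-only peaks away from a TSS lay far from protein-coding starts. Their summits were a median 91062 bp from the nearest protein-coding start, against 23460 bp for shared peaks away from one, and 895 (48.1%, 45.8% to 50.4%) were over 100 kb from it. Between annotated genes lay 985 (52.9%, 50.7% to 55.2%), against 35.2% (32.8% to 37.7%) of shared peaks. Of the members in the tandem repeats described below, 84.4% (81.1% to 87.3%) were between genes, and of the 1335 outside them 40.5% (37.9% to 43.2%). Another 524 (28.2%) were in introns of protein-coding genes, 243 in lncRNA genes and 69 in exons of protein-coding genes. The start of another kind of gene was within 1 kb of 135 (7.25%, 6.16% to 8.52%), among them 73 near a lncRNA and 48 near a pseudogene, against 30.6% (28.3% to 33.0%) of shared peaks.

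A large group of them lay in tandem repeats, sequence in which a unit is followed by copies of itself. A peak was counted so when at least 50% of the bases in the 1 kb around its summit matched the base 1 period further on, for a period from 2 to 400 bp. This was so for 526 of 1861 members away from a TSS (28.3%, 26.3% to 30.4%), 11.1% (9.56% to 12.8%) of shared peaks away and 80.1% (77.5% to 82.4%) of NRF2 peaks shared with IgG 2. At a TSS 1 of 217 members was in one, the peak at TNC. The measure was added after the data had been seen, and a limit of 40% or 60% gave 640 or 343 members away from a TSS.

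Periods of 165 to 177 bp or 330 to 350 bp made up 379 of the 526, with 340 bp (143 peaks) and 171 bp (92 peaks) the most frequent. That is the unit length, single or double, of alpha satellite, the repeat that fills human centromeres. A pair of neighbouring units from a member on chromosome 2 (peak from 92922647 to 92923164, 12 fragments against 1.48 expected) is shown to make the repeat visible, the member of period 171 bp with the highest self-match. Capitals mark the 132 of 171 positions where the base is the same in both units, and the 31 bases at its summit occur 2239 times in the genome.
unit 1 (chr2:92922652-92922822, plus strand): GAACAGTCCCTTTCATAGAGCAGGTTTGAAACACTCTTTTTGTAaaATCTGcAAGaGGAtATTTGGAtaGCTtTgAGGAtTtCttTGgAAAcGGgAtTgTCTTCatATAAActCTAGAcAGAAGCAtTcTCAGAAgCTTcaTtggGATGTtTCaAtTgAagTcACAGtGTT
unit 2 (chr2:92922823-92922993, plus strand): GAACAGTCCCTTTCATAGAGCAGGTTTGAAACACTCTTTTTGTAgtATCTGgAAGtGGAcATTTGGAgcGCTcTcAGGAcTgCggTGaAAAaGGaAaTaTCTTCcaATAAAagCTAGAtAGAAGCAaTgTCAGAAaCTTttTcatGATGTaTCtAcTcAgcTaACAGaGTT

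Repeats held most of the highest peaks of the set. Among the 100 NRF2-only peaks away from a TSS with the highest −log10 q, 76 were in a tandem repeat, and among the lowest 100, 7 were. The median was 14 fragments in repeats (13 to 15) and 11 outside them (11 to 12), with −log10 q of 4.55 and 2.82. IgG 2 was near although it did not touch. Of the 379 peaks with a satellite period, 346 (91.3%, 88.0% to 93.7%) had an IgG 2 peak within 100 kb, against 93 of 1021 (9.11%, 7.49% to 11.0%) of the members neither repeated nor copied. The nearest BRG1 peak to a repeat member was a median 481705 bp away. Another NRF2-only peak lay within 10 kb of 97 of the 379 (25.6%), and of 56 of the 1335 members outside repeats (4.19%).

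Sequence that occurs more than once was common beyond the repeats. The 31 bases at the summit were found more than once in the genome for 781 of 1861 members away from a TSS (42.0%, 39.7% to 44.2%) and 17 of 217 at a TSS (7.83%, 4.95% to 12.2%). Shared peaks gave 25.1% (23.0% to 27.4%) and 2.46% (2.05% to 2.96%), and peaks shared with IgG 2 gave 89.7%. Within repeats it was 467 of 526, and outside them 314 of 1335 (23.5%). Away from a TSS, 1021 members (54.9%) were neither repeated nor copied. The study kept reads that mapped to 1 place, and how that worked in copied sequence was not tested.

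The 10 highest NRF2-only peaks away from a TSS were, but for 1, in tandem repeats. The highest ran from 26835367 to 26836056 on chromosome 17, between genes, in a repeat of period 15 bp. It held 285 fragments against 13.8 expected, a fold enrichment of 19.3, and ranked 28 among all NRF2 peaks. IgG 2 had a peak 9664 bp from it and BRG1 43160 bp. On chromosome 11 the peak from 134444102 to 134445027, in a lncRNA gene and a repeat of period 68 bp, held 140 fragments against 13.7. The other 7 in repeats had periods of 339 to 341 bp, on chromosomes 5, 7, 12 and 19, with 39 to 67 fragments. The 1 outside a repeat lay on chromosome 20 (49617457 to 49617736), 49512 bp from the start of PTGIS, with 67 fragments against 6.22, and its summit bases occur 8 times in the genome. Its best self-match was 44.7% at a period of 33 bp, so a limit of 40% would count it as a repeat.

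Among members neither repeated nor copied, named after their values were seen, the 5 highest had 24 to 50 fragments. The highest, on chromosome X (73850837 to 73851581), lay in a lncRNA gene and within 1 kb of a start of the lncRNA XIST. It had 41 fragments against 4.69 with ACTL6A 11799 bp away. In an intron with FKBP15 the nearest start, 33007 bp away, a peak on chromosome 9 (113187970 to 113188462) had 31 fragments against 3.21 and an ARE core 94 bp from its summit. Upstream of FABP6, an ileal bile acid binding protein, a peak 21711 bp from the start (chromosome 5, 160165316 to 160165977) had 32 against 3.59 with BRG1 9944 bp away. At CLEC11A, a secreted lectin-like growth factor, a peak 1251 bp inside the gene (chromosome 19, 50724544 to 50725267) had 50 against 10.4 with ACTL6A 2581 bp away. A peak between genes on chromosome 9 (2242016 to 2242376) had 24 against 2.46, with the nearest BRG1 peak 45960 bp away. The protein-coding start nearest to it, 81507 bp away, was 1 of those annotated for SMARCA2, the other SWI/SNF ATPase.

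For 966 members away from a TSS the nearest protein-coding start was within 100 kb, and it belonged to 889 genes, 4.52% of 19689. The nearest gene need not be one that a site acts on, and the genes named here were picked after their values were seen. None of the 33 NRF2 targets, the 19 genes of NRF2 and its regulators or the 37 glutathione enzymes was among them, a count of 0 each. Gastric and gut transcription factors gave 5 of 27 (18.5%), ELF3, SOX9, HNF4G, BHLHA15 and ESRRG, with 8 to 18 fragments at the 5 summits. All 5 peaks were weak, with −log10 q from 1.73 to 3.95 and ranks from 5700 to 8841 of 9045. The HNF4G peak lay in the part of chromosome 8 where members were dense, described below. BHLHA15, which drives secretory cell maturation, had the highest with 18 fragments 19802 bp from its start. SOX9, a factor of gut stem cells, had the lowest with 8 fragments 73745 bp from its start. SWI/SNF subunits gave 3 of 31, SMARCA2, ACTB and ARID1B. The peak near ACTB, which codes for beta-actin, had 22 fragments. It lay in an exon of a protein-coding gene, 1433 bp downstream of the nearest of the annotated ACTB starts. That near ARID1B had 10 fragments and lay in an intron of a protein-coding gene, 6479 bp upstream of the nearest annotated ARID1B start. AP-1 gave 1 of 14, JUN, with 12 fragments 99225 bp away, and the proteasome 1 of 33, PSMB1. Replication-dependent histones gave 3 of 69, zinc finger genes 27 of 509 (5.30%), olfactory receptors 8 of 390, the respiratory chain 1 of 95 (NDUFAF2) and ribosomal proteins 0 of 86.

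Outside repeats, the members away from a TSS were unevenly spread over chromosomes. Chromosome 8 held 214 of 1335 (16.0%, 14.2% to 18.1%), where it makes up 4.70% of the genome's length, 1.47 per Mb against 0.432 over the genome. Chromosome 20 had 0.993 per Mb, chromosome 22 had 0.846, chromosome 9 had 0.766, and chromosomes 3, 4, 5, 18 and X had between 0.199 and 0.227. On chromosome 8 the first 40 Mb had 21 members, 0.525 per Mb, and the part from 50 Mb to the end had 188, 1.98 per Mb. BRG1 peaks were not denser there, with 14.6 per Mb in the first part and 11.3 in the second, and chromosome 8 held 3.61% of BRG1 peaks and 5.82% of shared NRF2 peaks away from a TSS.

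The expected fragments moved with this pattern on some chromosomes and not on others. At shared peaks at a TSS their median was 4.50 in the part of chromosome 8 from 50 Mb on and 2.26 in the first 40 Mb. It was 3.83 on chromosome 8 as a whole, 4.15 on chromosome 9, 4.09 on chromosome 19 and 3.99 on chromosome 20, and between 2.31 and 3.53 on the other autosomes and X. Chromosomes 22, 21 and 7, with 0.846, 0.728 and 0.715 members per Mb, had 3.19, 2.66 and 3.07, whereas chromosome 19 had 0.597 members per Mb. The part of the expected fragments in the density of members was not tested.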

How the data were processed

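Peak lists of 5 CUT&Tag libraries of SNU638 cells were used (150 bp paired-end reads). The authors trimmed and filtered reads, mapped them with BWA to hg38, kept uniquely mapped reads and used MACS2 to call peaks with q-values under 0.05. The submitters' processing notes also name fastp 0.23.0 and HOMER 4.11. The control given to the caller is not given in the sources used here. The deposited columns are a score (10 times −log10 q), a fold enrichment (the ratio of observed to expected fragments at the summit, each with a pseudocount of 1), −log10 p and −log10 q.

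Peaks shared with another list had at least 1 common base. Starts were those of protein-coding transcripts in GENCODE release 44 on GRCh38, and the nearest start was taken from the summit. Fragments were the whole number matching the fold enrichment and the Poisson p, to within 0.001 in −log10 p. The lists hold no total depth, and no rate per read was computed. Sequence was read from GRCh38, and the 31 bases at each summit were counted on both strands of 24 chromosomes. Shares have Wilson 95% intervals and medians binomial order-statistic ones. No tests were made, since each antibody had 1 library.

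The members, gene lists and motifs were chosen with earlier results of these data known, and the repeat, copy, chromosome and like-strength measures after these values were seen. Named were the 10 highest peaks at and away from a TSS, the 5 and 5 highest with an ARE core, genes of the NRF2, glutathione, AP-1, SWI/SNF and gut factor lists with a member at a TSS (TALDO1 and MGST1), and the 3 and 3 peaks nearest to the rule's limit. Genes of other lists, and those nearest to a peak away from a TSS, were named after their values were seen. Of the NRF2 targets, TRIM16L was not analysed here. Routines were tested on simulated data. Software was samtools 1.23.1, pysam 0.24.0, SciPy 1.17.1, matplotlib 3.10.9, pandas 2.3.3, NumPy 2.4.6 and Python 3.11.15.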

Additional observations from a re-analysis of the deposited data

How the results depend on the processing

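Of 88 alternative values for 10 results, 42 stayed within the interval or within 1.5 times the count reported, and 46 moved. When NRF2 peaks needed a −log10 q of 5 or more, 400 members remained, all among the 2078, with 35 genes at a TSS, a TSS share of 7.75%, widths of 477 bp at a TSS and 390 bp away, 19 and 18 fragments, ARE shares of 12.9% and 6.23%, and 7.75% within 1 kb of BRG1. With the other lists at that limit, the TSS share was 13.2%, the width away 371 bp with 13 fragments, the share near BRG1 25.8% and the genes 414. Asking for 50% of both peaks to overlap gave 3856 members, a TSS share of 33.9%, widths of 455 and 377 bp, 16 and 13 fragments, 48.9% near BRG1 and 1524 genes, so the set grows mostly at a TSS when a small overlap does not count. With peaks within 500 bp counted as shared, the TSS share was 6.50%, 3.69% were near BRG1, and 124 genes remained. Without IgG replicate 2 there were 2747 members, a TSS share of 8.01%, a width away of 379 bp, 13 fragments and 10.7% near BRG1. Leaving out IgG 1 peaks changed 0 members. With 50% of both peaks asked to overlap, the ARE core was in 9.80% (8.30% to 11.5%) of summit windows of 1306 members at a TSS. Their flanks held it in 5.25% (4.45% to 6.17%), and these intervals did not overlap. Away from a TSS the intervals under that rule overlapped, at 9.06% (8.01% to 10.2%) and 8.20% (7.47% to 8.98%). Under the other rules for members, summit and flank intervals overlapped at and away from a TSS.

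The TSS share was 6.02% with 133 genes within 250 bp, 14.6% within 3 kb and 7.99% with 1 start per gene, and 24.7% had BRG1 within 5 kb. The ARE shares at and away from a TSS were 31.3% and 32.6% with TGANNNNGC, 3.23% and 3.55% with A or G before the core, and 14.3% and 16.1% over whole peaks. Among alternatives added after the data had been seen, leaving out tandem repeats gave a TSS share of 13.9% and 11 fragments away, and leaving out copied summits gave 1280 members, 15.6% and 11 fragments. No paired analysis was possible because there was 1 library for each antibody.

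Limits were the single library per antibody, peaks as weak as 8 fragments, and the unstated control of the caller. A peak absent from the BRG1 or ACTL6A list is one not called there, and signal below the caller's limit was not analysed here.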

Other observations

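The motifs of gut and blood lineage factors were as sparse at the summits as beside them. The FOX motif (TGTTTAC) was in 2.36% (Wilson 95% interval 1.77% to 3.16%) of NRF2-only summits away from a TSS and in 2.69% (2.21% to 3.26%) of their flanks. The GATA motif (AGATAAG) was in 1.02% (0.655% to 1.59%) and 1.61% (1.25% to 2.07%), the RUNX motif (TGTGGTT) in 2.74% (2.09% to 3.59%) and 2.53% (2.07% to 3.08%), and the HNF4 motif (CAAAGTCCA) in 3 of 1861 summits. The TEAD motif (ACATTCC) was in 13.3% (10.7% to 16.5%) of summits in tandem repeats and 13.0% (11.1% to 15.2%) of their flanks, against 3.52% (2.66% to 4.65%) of summits outside repeats. The 7 bases AGGGGGC, part of the CTCF motif, were in 4.94% (3.90% to 6.24%) of summits outside repeats and 3.30% (2.68% to 4.04%) of their flanks.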
